A study of Mus musculus with 12 samples.

Results

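The mRNAs of 34 plasma proteins that hepatocytes secrete, or need in order to secrete them, were followed in mouse proepicardium and embryonic epicardium. The 34 genes were named as a list by symbol, with no threshold on their measured values but with earlier results of these data known, and were all found among the 55228 genes of the table. They were carriers of hormones, metals and lipids (8 genes), lipid transport proteins (10 genes), proteins of clotting and fibrinolysis (10 genes) and protease inhibitors and binding proteins (6 genes). The proepicardium (PE) is a transient cauliflower-like cluster of cells beside the inflow of the looping heart, from which the epicardium grows out, and it was taken at E9.5. The embryonic epicardium (EE), the outer cell layer of the heart, was taken at E10.5. There were 3 mRNA libraries per stage, called PE1, PE2, PE3, EE1, EE2 and EE3 here, and each came from a separate pool of at least 5 embryos. All mice carried the same reporter allele, given as Wt1Cre-EGFP in the sample labels and as Wt1GFP/+ in the study's methods, and none was treated. PE was cut out by hand and EE was obtained by FACS sorting, so that the effect of stage and that of the collection method cannot be told apart.

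Hepatocytes make most of the proteins of blood plasma. In the embryo the liver bud grows from the foregut into the septum transversum, the mesenchyme beside which the proepicardium forms, and its first cells, the hepatoblasts, already express alpha-fetoprotein, transthyretin and apolipoproteins. The visceral endoderm of the yolk sac makes many of the same proteins before the liver does, and transferrin, apolipoprotein E and the retinol carrier Rbp4 are made by several other cell types as well. Liver-enriched transcription factors, among them Hnf4a, the Foxa proteins and C/EBP alpha, are known to bind the promoters of these genes.

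Several of the 34 genes lie side by side in the mouse genome (build GRCm38). The albumin family occupies chromosome 5, with Alb from 90460897 to 90476602, Afp from 90490737 to 90508907 and Afm from 90518932 to 90553543 on the plus strand, and the more distant member Gc from 89417522 to 89457898 on the minus strand. The 3 fibrinogen chains lie together on chromosome 3, with Fgg from 83007724 to 83015049, Fga from 83026076 to 83033627 and Fgb from 83040141 to 83049863. Apoa1, Apoc3 and Apoa4 lie on chromosome 9 between 46228580 and 46243459. Genes of these clusters had very different levels, as given below for each. The promoters of Afp and Alb and of Fga and Fgb are shown because these neighbours differ widely in level while each holds a motif of the liver-enriched C/EBP factors. They are the windows from 250 bases before to 50 bases after the RefSeq start (GRCm38.p6), each 5′ to 3′ on the strand of its gene. Capitals mark the matches to TTGCNNAA on either strand (first base at -89, -94, -135 and -80 from the start, in the order printed). The windows are chr5:90490464-90490763 (plus strand) for Afp, chr5:90460620-90460919 (plus strand) for Alb, chr3:83025903-83026202 (plus strand) for Fga and chr3:83049814-83050113 (minus strand) for Fgb.
Afp: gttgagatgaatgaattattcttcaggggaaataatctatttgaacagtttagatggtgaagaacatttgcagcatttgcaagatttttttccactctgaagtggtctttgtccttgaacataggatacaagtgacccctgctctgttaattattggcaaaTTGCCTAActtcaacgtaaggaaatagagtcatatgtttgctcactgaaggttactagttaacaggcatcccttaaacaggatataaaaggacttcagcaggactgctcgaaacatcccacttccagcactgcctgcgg
Alb: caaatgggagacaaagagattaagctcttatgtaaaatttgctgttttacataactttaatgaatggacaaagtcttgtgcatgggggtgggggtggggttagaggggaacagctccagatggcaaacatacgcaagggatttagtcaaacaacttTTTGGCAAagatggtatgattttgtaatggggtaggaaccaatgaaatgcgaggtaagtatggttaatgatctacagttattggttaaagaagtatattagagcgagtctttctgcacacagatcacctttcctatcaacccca
Fga: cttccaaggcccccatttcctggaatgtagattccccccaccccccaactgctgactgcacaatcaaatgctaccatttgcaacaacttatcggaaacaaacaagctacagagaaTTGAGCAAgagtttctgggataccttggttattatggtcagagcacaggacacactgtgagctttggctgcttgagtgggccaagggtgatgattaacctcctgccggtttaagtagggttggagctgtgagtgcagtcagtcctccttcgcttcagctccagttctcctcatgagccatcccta
Fgb: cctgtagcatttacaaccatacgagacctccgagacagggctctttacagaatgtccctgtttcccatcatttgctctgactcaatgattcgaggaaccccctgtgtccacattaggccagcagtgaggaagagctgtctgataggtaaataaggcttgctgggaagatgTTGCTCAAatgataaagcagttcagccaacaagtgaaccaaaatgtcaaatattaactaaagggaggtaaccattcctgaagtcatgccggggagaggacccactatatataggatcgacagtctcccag

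RefSeq windows were found for 27 of the 34 genes, 31 windows in all, since some genes have several starts. The C/EBP motif, searched on both strands like the others, was held by 11 of 31 windows (35.5%) and by 10.8% of all 32851 RefSeq windows of the same length, in Afp, Alb, Rbp4, Apoa2, Apob, Fga, Fgb, Serpinc1, Serpina1a, Ahsg and Itih2. TGTTTAC, a motif of the Foxa proteins, was in 12.9% of the members' windows and 3.65% of all, and CAAAGTNCA, a motif of Hnf4a, in 6.45% and 1.41%. TATAAA, the TATA box, which is not in capitals above, was in 22.6% and 13.6%. A match is a description of letters only, and no binding was measured here. Cebpa, which encodes C/EBP alpha, had only 8, 14 and 16 counts in PE1, PE2 and PE3. Genes with the C/EBP motif did not have one common level, since per kilobase of exon Afp was the most abundant of the 34 in PE and Fga the 23rd.

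The deposited values were whole-number counts per gene, and their sum was 18464362 to 25814015 in the 6 mRNA libraries. Levels are given as CPM, the count per gene over the library size scaled with TMM factors. Differences are log2 fold changes (log2 FC) of EE over PE, so that a negative value is a higher level in PE, each with its standard error (SE). They come from edgeR's quasi-likelihood test over 23853 genes with Benjamini-Hochberg adjustment (padj). Calls required padj under 0.05 and a fold over 1.5. A count of 0 allows up to 3 counts, which is 0.112 to 0.121 CPM in a PE library and 0.130 to 0.171 CPM in an EE library, and this covers counting error only. The cDNA kit did not mark the strand, so reads of overlapping genes on opposite strands cannot be told apart. Epicardial markers were higher in EE (14 of 15 tested), as were 10 of 20 cardiomyocyte and 10 of 15 dissociation stress genes. Of 16 endothelial genes, 11 were higher in PE and 1 in EE. The shares over all genes tested were 4.86% higher in PE and 4.52% higher in EE.

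Most plasma protein mRNAs were abundant at E9.5 and at low levels in the sorted epicardium. Some, such as Apoh and Hp, were rare at both stages, and Trf remained abundant in EE. Of the 33 members that entered the test, 29 were higher in PE and none in EE, while 4 did not pass (Serpina6, Apoh, Ahsg and Hp). Entry took 1 count or more in 3 of the 6 libraries. Apoa4, Apoc3, Apoh and Ahsg, at 0 in every EE library, entered through PE alone, so their direction was fixed in advance. Apoa4 and Apoc3 are among the 29. Among all 23853 genes, 9.38% were called, 4.86% as higher in PE and 4.52% as higher in EE. No member had a log2 FC above 0, so the number higher in EE was 0 at an unadjusted p under 0.05 as well, and it was 0 with DESeq2 and with limma. The median log2 FC was -6.46 over the members tested, with 4 of them listed at 0 in every EE library. It was -6.28 over 32 members with these at the bound that 3 counts give (Apoh has no bound), against -0.06 over all genes tested. In 32 of the 33 the lowest PE library lay above the highest EE library, which held for 18.6% of all genes tested, and the exception was Hp. For Apoa4, Apoc3, Apoh and Ahsg this separation could not fail, since they entered the test through PE alone. With EE libraries at 0 set to 3 counts the separation held for 30 members, since Apoh and Ahsg had a PE library below that floor. Together the 34 genes took 1.14%, 0.624% and 0.687% of all counts in PE1, PE2 and PE3, and 0.0599%, 0.0171% and 0.0163% in EE1, EE2 and EE3. The ranges of the stages were far apart, with PE1 the highest PE library and EE1 the highest EE library. The carriers made up most of the EE share, with 0.0516%, 0.0143% and 0.0136%, and Trf alone had 11241, 3119 and 2168 counts there. In bulk samples such as these, fewer cells of a type and less RNA per cell cannot be told apart. The number of members higher in PE lay between 24 and 30 when 1 library was left out, and it was 23 without PE1 and EE1 together, where fewer members were left to test.

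**Figure D1:**
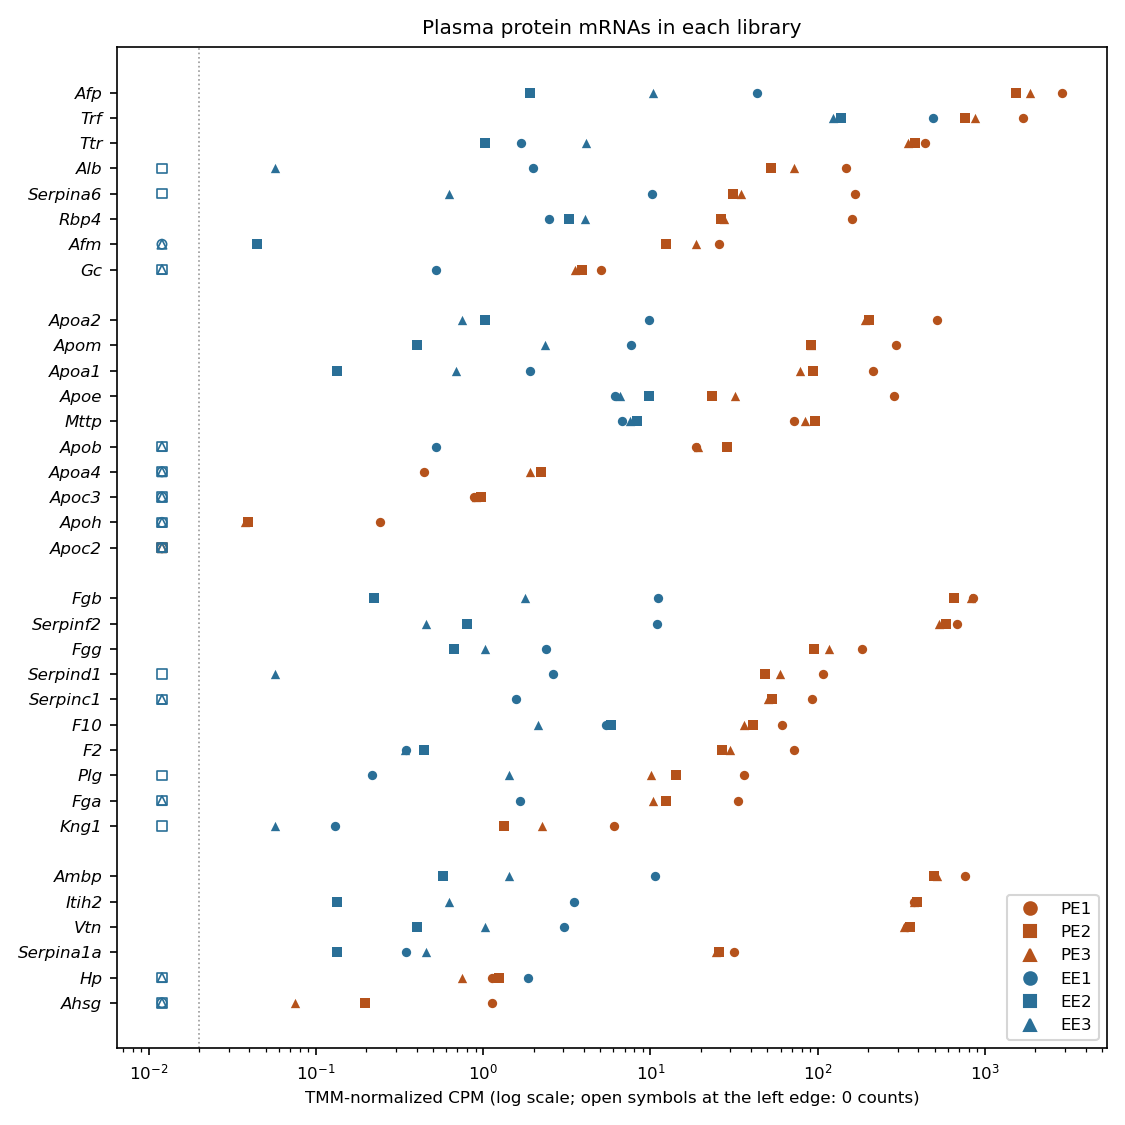
Level of each of the 34 plasma protein mRNAs in the 3 PE libraries (orange) and the 3 EE libraries (blue), in TMM-normalized CPM on a log axis, ordered by level within the groups of carriers, lipid transport, clotting and fibrinolysis, and inhibitors and binding proteins. Open symbols at the left edge stand for 0 counts, and the PE points lie to the right of the EE points for every member except Hp and Apoc2.

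Of the 8 carriers, 7 were higher in PE. Afp, the main serum protein of the fetus, was at 2888, 1536 and 1871 CPM in the PE libraries and at 43.4, 1.91 and 10.3 CPM in the EE libraries. Its lowest PE library was far above its highest EE library, and the ratio between the highest and the lowest library was larger in EE than in PE. The log2 FC was -6.82 (SE 0.985, padj = 0.00279). Alb, which encodes albumin, the main plasma protein after birth, was at 147.3, 52.5 and 72.6 CPM in PE, and per kilobase of exon at 62.9, 22.4 and 31.0 CPM against 857.5, 456.0 and 555.5 CPM for its neighbour Afp. In EE it had 46, 0 and 1 counts, so that almost all of its EE signal came from EE1 (log2 FC -6.98, SE 1.04, padj = 0.00324). Afm, which encodes afamin, a vitamin E binding protein, was at 25.5, 12.3 and 18.6 CPM in PE and had 1 count in the 3 EE libraries together. The ratio of pooled PE to pooled EE levels was 1184, with a 95% counting interval of 212.1 to 46780 (exact binomial), and the adjusted p was 8.8e-05. Gc, which encodes the vitamin D binding protein, was the rarest of the family also per kilobase, at 5.04, 3.91 and 3.52 CPM in PE and with 12, 0 and 0 counts in EE. Its call (log2 FC -4.47, SE 1.05, padj = 0.0273) was lost with DESeq2 (padj = 0.0584) and when PE1, PE2, PE3 or EE2 was left out (padj = 0.0544 to 0.0682).

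Ttr, the carrier of thyroid hormone and, together with Rbp4, of retinol, was at 438.5, 384.1 and 344.5 CPM in PE and at 1.69, 1.02 and 4.11 CPM in EE. It varied little among the PE libraries (389.0 ± 47.2 CPM, SD, n = 3), and its log2 FC was -7.45 (SE 0.490, padj = 6.0e-05). Its partner Rbp4 behaved differently between libraries of one stage. Rbp4 was at 160.2 CPM in PE1 against 26.4 and 27.4 CPM in PE2 and PE3, and at 2.47, 3.24 and 4.05 CPM in EE. It was thus present in all 3 EE libraries at like levels, and its log2 FC was -4.46 (SE 0.725, padj = 0.00511). Trf, which encodes the iron carrier transferrin, stayed above 100 CPM in every EE library. It was at 1692, 761.6 and 866.2 CPM in PE and at 487.4, 138.4 and 123.7 CPM in EE, a PE level 4.43 times the EE level. Its call (log2 FC -2.15, SE 0.531, padj = 0.0341) was lost without PE1 (padj = 0.0836), EE2 (padj = 0.113) or EE3 (padj = 0.0695). Of its exon bases, 63.5% are shared with an annotated gene on the same strand, Gm20425, but no gene of that name was among those counted. Serpina6, which encodes corticosteroid-binding globulin, was at 167.4, 31.1 and 34.8 CPM in PE and at 10.3, 0 and 0.628 CPM in EE. The stages did not overlap, but the test was not passed (log2 FC -4.40, SE 1.31, padj = 0.0668), and it was passed without EE1 (padj = 0.0112), with limma (padj = 0.0473) and with no filter (padj = 0.000744).

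Of the 9 lipid transport genes tested, 8 were higher in PE. Apoa1 and Apoa2 encode the main proteins of high-density lipoprotein. Apoa1 was at 214.3, 93.1 and 78.2 CPM in PE and at 1.91, 0.133 and 0.685 CPM in EE (log2 FC -7.12, padj = 0.000553). Apoa2 was at 518.0, 201.6 and 192.9 CPM in PE and at 9.80, 1.02 and 0.742 CPM in EE (log2 FC -6.28, padj = 0.00363). In both genes PE1 was over 2 times the other PE libraries and EE1 was the highest EE library. Apom, a lipocalin of high-density lipoprotein that carries sphingosine-1-phosphate, was at 294.3, 91.1 and 91.8 CPM in PE and at 7.67, 0.399 and 2.34 CPM in EE, with PE1 and EE1 again the highest of their stages (log2 FC -5.51, padj = 0.00531).

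The genes needed to build lipoproteins that carry triglycerides differed from these in their spread. Apob, which encodes the large scaffold protein of these particles, was at 18.7, 28.5 and 19.2 CPM in PE and had 12, 0 and 0 counts in EE (log2 FC -6.86, padj = 0.00136). Mttp, the transfer protein of the endoplasmic reticulum that loads lipid onto apolipoprotein B and is not itself secreted, was at 72.1, 96.6 and 83.4 CPM in PE and at 6.72, 8.34 and 7.53 CPM in EE. PE1 was the lowest PE library for both, unlike for Apoa1, Apoa2 and Apom. Mttp had the smallest SE of all members (log2 FC -3.48, SE 0.230, padj = 6.0e-05), and unlike Apob it kept a like level in each EE library.

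Apoe, the ligand of lipoprotein receptors that macrophages and other cells also make, was at 286.0 CPM in PE1 against 23.2 and 31.9 CPM in PE2 and PE3, and at 6.11, 9.76 and 6.56 CPM in EE. PE1 was thus 10.4 times the mean of the other PE libraries, the largest such ratio among the members. The log2 FC was -3.92 (SE 0.885, padj = 0.0235), and the call was lost with limma (padj = 0.0523) and without EE1, EE2 or EE3 (padj = 0.0626 to 0.0831). Without PE1 and EE1 together it was -1.75 (padj = 0.0171). Markers of macrophages, a known source of Apoe, were low in all libraries, and 6 of the 14 were at 0 in 1 or more of them. Lyz2 was at 28.2, 6.64 and 0.825 CPM in PE and at 9.37, 8.70 and 2.57 CPM in EE. C1qb was at 4.23, 0.664 and 0.0750 CPM in PE and at 15.3, 5.90 and 4.17 CPM in EE. For both PE1 was the highest PE library, and the stages overlapped. Of the 14 macrophage markers, 1 (Mrc1) was higher in PE, 1 (Csf1r) was higher in EE and 12 did not pass (median log2 FC 1.84). That is near the shares over all genes tested, 4.86% higher in PE and 4.52% higher in EE. The summed share of counts of these markers was 0.00127% to 0.00618% in PE and 0.00376% to 0.00878% in EE. The median ratio of PE1 to the mean of PE2 and PE3 was 1.95 over the 5 markers with a mean of 1 CPM or more in PE2 and PE3. The number of markers higher in EE was 5 without PE1 and 2 without EE3, and it was 0 for PE without PE2, PE3 or EE2. The part of macrophages in the level of Apoe was not tested.

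The remaining lipid transport genes were rare. Apoa4, an apolipoprotein of chylomicrons and high-density lipoprotein, had 11, 57 and 51 counts in PE and 0 in every EE library. Its mean PE level was 10.54 times the level that 3 counts give on average in EE (padj = 0.0125). This bound was 14.3 without PE1, 8.12 without PE2 and 9.20 without PE3. Apoa4 was the only member with PE1 far below PE2 and PE3. Genes on the other strand overlap 69.8% of its exon bases. Apoc3, an inhibitor of lipoprotein lipase that lies between Apoa1 and Apoa4, had 22, 25 and 24 counts in PE and 0 in every EE library. Its bound was 6.36-fold (padj = 0.0113), and 6.16 to 6.47 with 1 PE library left out. Per kilobase of exon, Apoa1 was at a mean of 104.0 CPM in PE and its neighbours Apoc3 and Apoa4 at 0.908 and 0.841 CPM. Apoh, which encodes beta-2-glycoprotein I, had 6, 1 and 1 counts in PE and 0 in EE, and did not pass (padj = 0.157). Apoc2, the activator of lipoprotein lipase, was at 0 counts in all 6 libraries and was not tested. A gene annotated on the same strand, Gm44805, covers 79.5% of the exon bases of Apoc2 and was itself at 0 counts in all 6 libraries. How reads shared by such genes were counted is not given in the sources used here, so the 0 of Apoc2 gives no level.

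All 10 genes of clotting and fibrinolysis were higher in PE. Fibrinogen, the clot protein that thrombin cleaves, has 3 chains, and the mRNAs of all 3 were present in every PE library. Fgb was at 853.1, 655.5 and 822.7 CPM in PE and at 11.1, 0.222 and 1.77 CPM in EE (log2 FC -7.46, SE 1.035, padj = 0.00225). Fgg was at 183.7, 95.5 and 116.8 CPM in PE and at 2.39, 0.666 and 1.03 CPM in EE (log2 FC -6.58, SE 0.499, padj = 0.000122). Fga was at 33.2, 12.4 and 10.4 CPM in PE and had 38, 0 and 0 counts in EE (log2 FC -5.01, SE 1.14, padj = 0.0247). Per kilobase of exon the order was the same, with mean PE levels of 204.0 for Fgb, 63.1 for Fgg and 6.20 for Fga. The call of Fga was lost with DESeq2 (padj = 0.133) and without PE1 (padj = 0.0682) or EE2 (padj = 0.0645).

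F2, which encodes prothrombin, was at 71.8, 26.9 and 30.0 CPM in PE and had 8, 10 and 6 counts in EE, so that its few EE counts were spread evenly (log2 FC -6.80, padj = 0.000122). F10, which encodes the factor X that cleaves prothrombin, was at 61.2, 41.2 and 36.4 CPM in PE and at 5.42, 5.81 and 2.11 CPM in EE. It kept more of its level than F2, and its log2 FC was -3.37 (SE 0.403, padj = 0.00103). Kng1, the source of bradykinin, was at 6.04, 1.33 and 2.25 CPM in PE and had 3, 0 and 1 counts in EE (log2 FC -5.55, padj = 0.00785). Plg, the precursor of the fibrin-cleaving enzyme plasmin, was at 36.1, 14.2 and 10.1 CPM in PE and had 5, 0 and 25 counts in EE (log2 FC -5.28, padj = 0.0103). Plg, like Ttr, had its highest EE level in EE3 and not in EE1.

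The inhibitors of clotting and fibrinolysis followed the factors. Serpinf2, which encodes the plasmin inhibitor alpha-2-antiplasmin, was the most abundant of them also per kilobase, at 682.5, 582.8 and 529.4 CPM in PE and at 10.97, 0.799 and 0.457 CPM in EE (log2 FC -7.17, padj = 0.00267). Per kilobase of exon its mean level in PE was 257.4 ± 33.5 CPM (SD, n = 3), far above that of the precursor of its target, Plg, at 5.42 ± 3.77 CPM. Serpinc1, which encodes antithrombin, was at 92.5, 53.6 and 50.3 CPM in PE and had 36, 0 and 0 counts in EE (log2 FC -6.89, padj = 0.00300), and Zbtb37 on the other strand overlaps 34.4% of its exon bases. Serpind1, which encodes the thrombin inhibitor heparin cofactor II, was at 107.6, 48.5 and 59.1 CPM in PE and had 60, 0 and 1 counts in EE (log2 FC -6.28, padj = 0.00638). In all 3 inhibitors nearly the whole EE signal came from EE1.

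Of the 6 other inhibitors and binding proteins, 4 were higher in PE. Ambp encodes a precursor that is cut into the lipocalin alpha-1-microglobulin and the protease inhibitor bikunin, and Itih2 encodes a heavy chain to which bikunin is coupled. Ambp was at 756.0, 496.1 and 513.9 CPM in PE and at 10.6, 0.577 and 1.43 CPM in EE (log2 FC -7.11, padj = 0.00175). Itih2 was at 374.1, 390.6 and 374.8 CPM in PE and at 3.47, 0.133 and 0.628 CPM in EE (log2 FC -8.04, SE 0.824, padj = 0.000460), a PE level 269.4 times the EE level. Vtn, which encodes the adhesion protein vitronectin, was at 339.9, 355.0 and 328.6 CPM in PE and at 3.04, 0.399 and 1.03 CPM in EE (log2 FC -7.82, SE 0.604, padj = 0.000125). Itih2 and Vtn were nearly equal in the 3 PE libraries. Serpina1a, a copy of the alpha-1-antitrypsin gene, was at 31.6, 25.6 and 24.7 CPM in PE and at 0.347, 0.133 and 0.457 CPM in EE (log2 FC -6.46, padj = 6.0e-05). Mice have several nearly identical copies of this gene, among which reads may have been split or lost, so its own level is uncertain.

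The other members of this group, both acute phase or fetal serum proteins, did not pass. Ahsg, which encodes the mineral-binding protein fetuin-A, had 28, 5 and 2 counts in PE and 0 in every EE library, which is at least 3.22-fold higher in PE set against 3 counts per EE library (padj = 0.0751). This bound rests on PE1, since without it the mean PE level of Ahsg was 0.135 CPM, under the 0.145 CPM that 3 counts give on average in EE. It passed with DESeq2 (padj = 0.0309) and with no filter (padj = 0.0268). Hp, which encodes the hemoglobin-binding protein haptoglobin, had 28, 32 and 20 counts in PE and 43, 0 and 0 counts in EE (log2 FC -0.72, SE 1.35, padj = 0.803). Without EE1, Hp was at 0 in the EE libraries left and passed (padj = 0.0223).

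**Figure D2:**
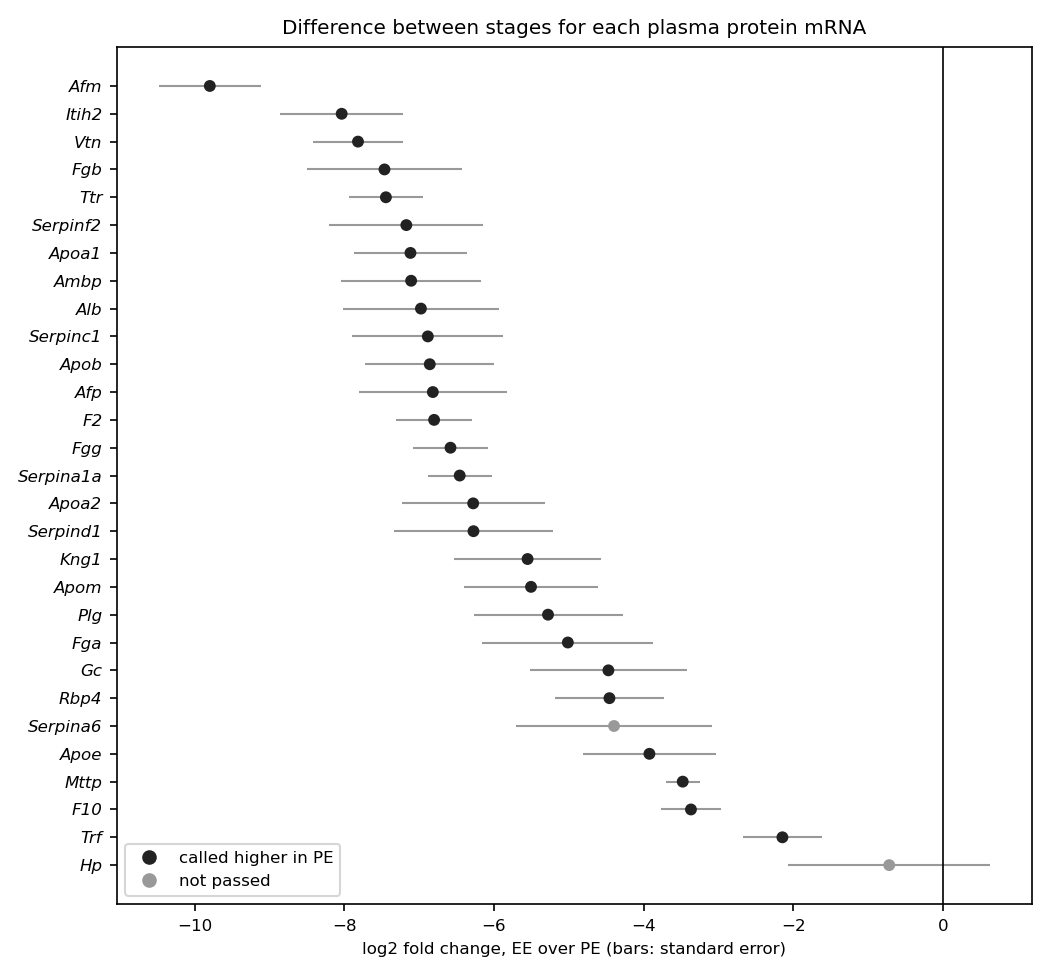
Log2 fold change (EE over PE) of the 29 members with at least 1 count in EE, with the standard error (SE) as bars, from edgeR's quasi-likelihood test, black where called higher in PE and grey where the test was not passed. The called members lie between -9.80 (Afm) and -2.15 (Trf), and Trf, F10, Mttp and Apoe lie nearest to 0 among them.

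The members were ranked by their level per kilobase of merged exons. On this scale the most abundant members in PE were Afp, at 623.0 ± 209.1 CPM per kilobase (SD, n = 3), Apoa2, at 566.4 ± 344.9, Ambp, at 417.8 ± 103.0, Trf, at 333.3 ± 153.5, and Ttr, at 328.0 ± 39.8. The neighbours among these 5 lay within the spread between libraries. They were followed by Serpinf2 at 257.4, Fgb at 204.0, Vtn at 168.1, Apom at 157.0 and Itih2 at 114.6 CPM per kilobase. Alb, at 38.8 ± 21.3, was the 16th, behind Rbp4 at 53.1 and Serpina6 at 44.2 CPM per kilobase. In EE the order differed, with Trf first at 75.3 ± 62.0 CPM per kilobase and Apoa2 and Afp next at 7.18 ± 9.59 and 5.51 ± 6.51. Apoe was the 4th in EE at 3.50 ± 0.930 but the 13th in PE at 53.2 ± 69.8. With the longest transcript as the length, the first 9 members in PE kept their ranks.

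The plasma protein mRNA that remained in the epicardium was not one common fraction of the level in PE. For the 30 members at 1 CPM or more in PE, the level in each EE library was expressed as a percentage of the PE mean. The median was 2.27% in EE1, 0.101% in EE2 and 0.397% in EE3, and 2, 11 and 7 of the 30 were at 0 in these libraries. EE1 was the highest EE library for 20 of the 29 members with any count in EE. A group of 5 genes stood apart from this order, with at least 3% of the PE mean in each EE library. Trf kept 44.0%, 12.5% and 11.2%, Mttp 8%, 9.93% and 8.97%, F10 11.7%, 12.6% and 4.57%, Apoe 5.38%, 8.58% and 5.77% and Rbp4 3.46%, 4.54% and 5.68%. This group was picked from these values, and no test was made of it. Several abundant members lay near or below the median of each library, such as Afp with 2.07%, 0.0909% and 0.492%, Fgb with 1.42%, 0.0285% and 0.228% and Itih2 with 0.913%, 0.0350% and 0.165%. Others lay well above it in 1 or more libraries, such as Apoa2 with 3.22%, 0.336% and 0.244%, Ttr with 0.435%, 0.262% and 1.06% and Apom with 4.82%, 0.251% and 1.47%. F2 was again even over the EE libraries, at 0.809%, 1.03% and 0.798%.

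Since EE1 held most of the remainder, the size of many differences rests on it. Of the 23 members that were called and still had counts in EE2 or EE3, 14 had a difference larger by over 1.5 times when EE1 was left out. The log2 FC without EE1 was -8.44 for Afp, -3.08 for Trf, -8.36 for Apoa1, -8.40 for Apoa2, -6.91 for Apom, -9.68 for Fgb, -7.30 for Fgg, -9.85 for Serpinf2, -9.23 for Ambp, -10.03 for Itih2, -8.94 for Vtn and -6.70 for Kng1. Alb and Serpind1 were left with 1 count each in EE. Mttp, Apoe, Rbp4 and F2, which were even over the EE libraries, and F10, which was lowest in EE3, moved by less than 1.5 times without EE1. Without EE3 the log2 FC of Ttr was -8.16 and that of Plg -7.46, and without EE2 that of Apob was -6.27.

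**Figure D3:**
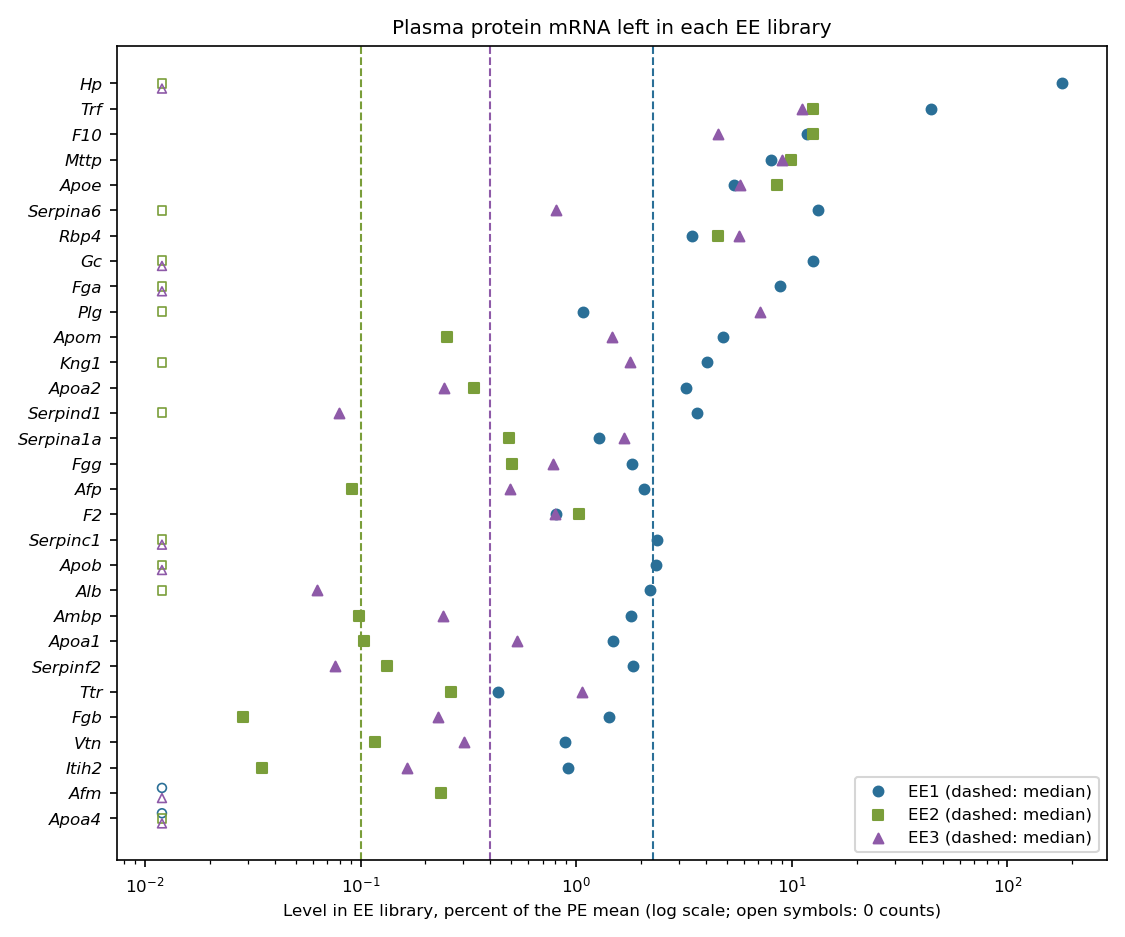
Level of 30 plasma protein mRNAs in each EE library as a percentage of the PE mean, on a log axis, with open symbols for 0 counts and dashed lines at the median of each library (2.27% in EE1, 0.101% in EE2 and 0.397% in EE3). Trf, F10, Mttp, Apoe and Rbp4 lie to the right of all 3 medians in every library, while 12 of the others follow the order EE1, EE3, EE2.

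The members also differed in their spread among the PE libraries. PE1 was the highest of the 3 for 24 of the 29 members with a mean of 1 CPM or more in PE2 and PE3. The median ratio of PE1 to the mean of PE2 and PE3 was 1.73 over these 29 and 0.916 over 13218 genes, and 44.8% of the members against 5.64% of all genes had a ratio of 2 or more. The largest ratios were those of Apoe (10.4), Rbp4 (5.95), Serpina6 (5.08), Kng1 (3.38) and Apom (3.22). The ratios of Itih2 (0.977), Vtn (0.995), Fgb (1.15), Ttr (1.20) and Serpinf2 (1.23) were close to 1, and those of Mttp (0.801), Apob (0.781) and Apoa4 (0.214) were below it. When PE1 was left out, 9 of the 27 called members with counts in EE had a difference smaller by over 1.5 times. The log2 FC without PE1 was -1.88 for Apoe, -3.05 for Rbp4, -4.71 for Kng1, -4.70 for Apom, -4.53 for Plg, -4.32 for Fga, -5.65 for Apoa2, -6.53 for Apoa1 and -6.21 for F2. Leaving out PE2 or PE3 moved no called member by that much. Over the members the ratio went with the GC content of the transcript (Spearman's rho 0.317) and against its length (rho -0.337), and the values over all genes were 0.332 and -0.362. These points share the same 3 libraries, and the part of base composition and length in the ratios was not tested. Of the hepatoblast genes that are not secreted plasma proteins, 14 with a value had a median ratio of 0.746. PE1 was the lowest PE library for 11 of them and the highest for Dlk1 (547.3, 96.1 and 126.6 CPM in PE), Foxa2 (6.08, 1.60 and 2.85 CPM) and Asgr1 (ratio 2.13). Erythroid genes, which mark blood, had a median ratio of 1.68.

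**Figure D4:**
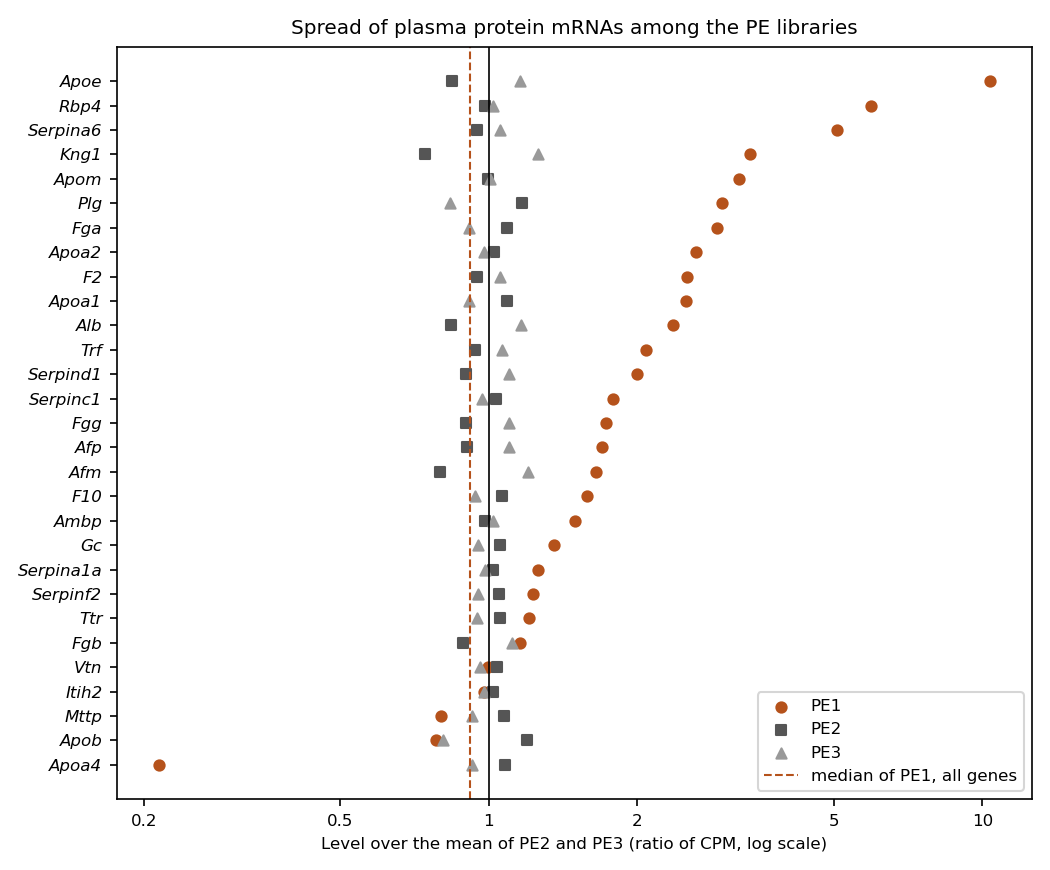
Level of 29 plasma protein mRNAs in PE1, PE2 and PE3 divided by the mean of PE2 and PE3 (log axis), ordered by the ratio of PE1, with the dashed line at the median ratio of PE1 over all genes (0.916). PE1 lies at 2 or more for 13 members, from Apoe at 10.4 downward, and near or below 1 for Vtn, Itih2, Mttp, Apob and Apoa4.

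Other plasma proteins of the liver were also mostly higher in PE. Of 43 tested, 26 were higher in PE and 1 in EE, while 16 did not pass (median log2 FC -5.43, and -3.56 with genes at 0 in EE at their bound). Over all genes tested, 4.86% were higher in PE and 4.52% in EE. At 0 in every EE library were 9 of the 43, which entered the test through PE alone. Habp2, which encodes a clotting-related protease, was at 169.3, 197.6 and 181.3 CPM in PE and at 3.17, 0.355 and 0 CPM in EE (log2 FC -7.22, padj = 0.00154). The alpha-1-antitrypsin copy Serpina1b was at 122.3, 87.3 and 91.8 CPM in PE and at 0.997, 0.0887 and 0 CPM in EE, and its reads are subject to the same doubt as those of Serpina1a. Cpn1, a carboxypeptidase of plasma, and Hpx, the heme carrier hemopexin, had log2 FCs of -5.59 and -5.22. Lcat, an enzyme of high-density lipoprotein, and C8g, a complement component, did not pass (padj = 0.144 and 0.168). The gene higher in EE was Cp, which encodes ceruloplasmin and was named after its values were seen, at 0.0806, 0.430 and 0.300 CPM in PE and at 7.33, 4.35 and 2.23 CPM in EE (log2 FC 4.07, padj = 0.00705). The number higher in PE was 16 without PE1, 17 without PE2, 17 without PE3 and 12 without PE1 and EE1 together.

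Genes of clotting and fibrinolysis that are mainly made outside hepatocytes were counted apart, and most of them did not differ past the limits. Of 16, 1 was higher in PE and 4 in EE, while 11 did not pass (median log2 FC -0.08). The shares over all genes tested were 4.86% higher in PE and 4.52% higher in EE. Plat, which encodes the tissue plasminogen activator that cleaves the product of Plg, was at 241.1, 245.4 and 250.4 CPM in PE and at 1364, 958.1 and 890.4 CPM in EE (log2 FC 2.12, padj = 0.000383). Tfpi, an inhibitor of the tissue factor pathway and of activated factor X, had a log2 FC of 1.55 (padj = 0.00165) and Serping1 one of 1.70 (padj = 0.0178). The gene higher in PE, Serpinf1, had one of -1.01 (padj = 0.04995), and the number higher in PE was 0 with RLE factors and without PE1, PE2, PE3 or EE2. The number higher in EE was 2 without PE3. Plat and Tfpi thus differed in the opposite direction from Plg and F10, with no overlap between stages in any of these 4 genes.

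Receptors and enzymes that take up the cargo of the members were called higher in PE more often than all genes, though most were not past the limits. Of 19 tested, 7 were higher in PE and 1 in EE, while 11 did not pass (median log2 FC -1.01). Among all genes tested, 4.86% were higher in PE and 4.52% in EE (median log2 FC -0.06). Tfrc, the receptor of transferrin, was at 97.9, 213.3 and 206.7 CPM in PE and at 50.9, 77.6 and 35.7 CPM in EE (log2 FC -1.66, padj = 0.0192). Lpl, the lipase that the product of Apoc2 activates, was higher in PE as well (padj = 0.00247). Itgav, a subunit of the vitronectin receptor, was at 15.0, 22.8 and 18.4 CPM in PE and at 36.6, 42.8 and 48.8 CPM in EE (log2 FC 1.19, padj = 0.0148), against the direction of Vtn. The receptors Scarb1 and Lrp1 did not pass (padj = 0.0694 and 0.0637). Without PE2, 4 genes of this list were higher in PE, and without PE3 none was higher in EE.

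**Figure D5:**
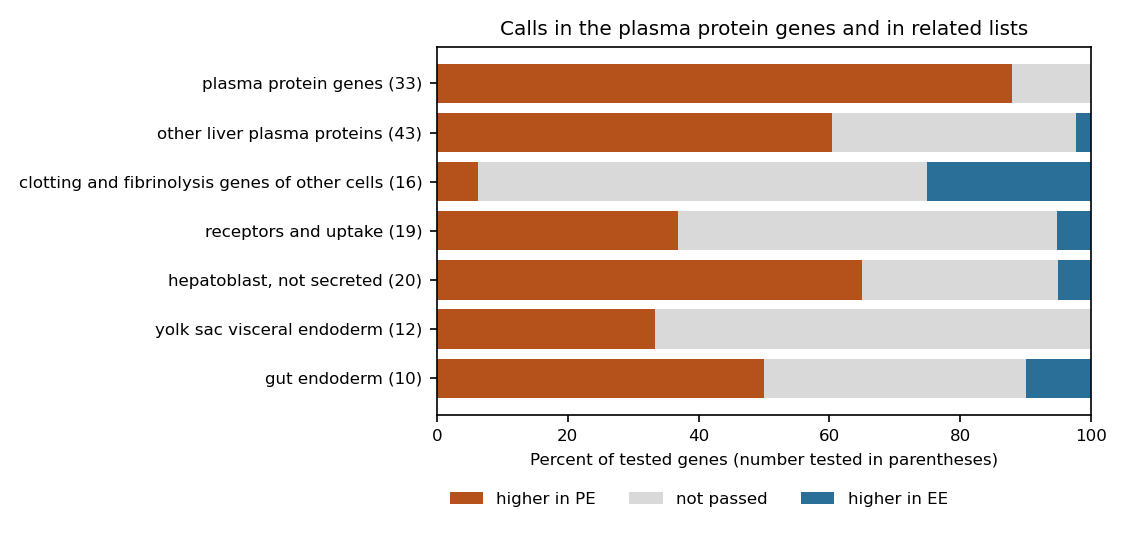
Share of the tested genes of each list that were called higher in PE, called higher in EE or did not pass, with the number tested in parentheses. Of the plasma protein genes 29 of 33 were higher in PE and 0 higher in EE, against 26 and 1 of 43 other liver plasma proteins and 1 and 4 of 16 clotting genes of other cells. Over all genes tested, 4.86% were higher in PE and 4.52% higher in EE.

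The label of the members as hepatocyte products was set against liver markers that are not secreted. Of 20 such hepatoblast genes tested, 13 were higher in PE and 1 (Nr1h4, named after its values were seen) in EE, while 6 did not pass (median log2 FC -4.27). The shares over all genes tested were 4.86% and 4.52%. At 0 in every EE library were 4 of the 20, which entered the test through PE alone. With these at their bound, and 1 that has no bound left out, the median was -3.77. Hnf4a was at 23.6, 35.1 and 29.0 CPM in PE and at 0.0434, 0 and 0 CPM in EE, and Foxa3 at 35.4, 62.0 and 51.7 CPM in PE and at 0.260, 0 and 0 CPM in EE. Prox1, a homeobox factor of hepatoblasts and other cells, was at 32.7, 43.2 and 43.6 CPM in PE and at 5.77, 5.06 and 3.20 CPM in EE. These 3 genes were present in all 3 PE libraries with PE1 the lowest, while Foxa2 and Dlk1, given above, had PE1 the highest as most members did. The number of hepatoblast genes higher in PE was 7 without PE2, 7 without PE3 and 6 without PE1 and EE1 together. Tdo2, an enzyme of adult hepatocytes, was at 23.1, 35.9 and 59.9 CPM in PE and at 36.2, 119.7 and 120.4 CPM in EE and did not pass (padj = 0.139), and the bile acid transporter Slc10a1 was under 1 CPM in every library. The late liver genes Ugt1a1 and Cyp3a16 were at 0 counts in all 6 libraries.

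The yolk sac makes many of the same proteins, so markers of its visceral endoderm were counted as well. Of 12 tested, PE was higher in 4 and 8 did not pass, where 4.86% of all genes tested were higher in PE. The median log2 FC was -2.30, and -0.88 with Amn left out, which was at 0 in EE and too rare in PE for a bound. The number of these markers higher in PE was 2 without PE1, EE1 or EE2. The summed share of counts of the 12 was 0.0543% to 0.0669% in PE and 0.0209% to 0.0334% in EE. Cldn6, a claudin also found in other embryonic epithelia, took the largest part of these counts in PE, at 263.1, 433.5 and 377.1 CPM. Slc39a5 (log2 FC -5.403, padj = 0.0006044), Soat2 (log2 FC -4.555, padj = 0.03421) and Pdzk1 (log2 FC -4.731, padj = 0.04491) were higher in PE as well. Slc39a5 was at 10.92, 10.7 and 9.932 CPM in PE. Soat2 was at 10.63, 1.523 and 1.162 CPM there, with PE1 the highest as for most members. Pdzk1 was under 1 CPM in every library. Amn, which with Cubn forms an uptake receptor found in this tissue, had 3, 2 and 1 counts in PE and 0 in EE. Cubn had 19, 96 and 55 counts in PE and 39, 15 and 21 counts in EE. Neither passed (padj = 0.148 for Amn and 0.464 for Cubn). Dab2 and Cited1 did not pass (padj = 0.0771 and 0.720). Of gut endoderm genes, 5 of 10 were higher in PE, among them Cdh1 (log2 FC -5.09) and Epcam (log2 FC -4.11), and Krt7 was higher in EE (log2 FC 2.83). The shares over all genes tested were 4.86% higher in PE and 4.52% higher in EE. At 0 in every EE library was 1 of the 10 gut genes. The number of gut genes higher in PE was 3 without PE2 and 2 without PE1 and EE1 together. The part of each of these cell types in the levels of the members was not tested.

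The small RNA libraries of the same stages gave a separate measurement. miR-122-5p, the main miRNA of hepatocytes, had 1055, 463 and 560 counts in PE and 9, 0 and 0 counts in EE. PE1 was the highest PE library, as for most members, and EE1 was the only EE library with more than 0 counts, as for 5 members (Gc, Apob, Fga, Serpinc1 and Hp). Its log2 FC was -6.68 (SE 1.43, padj = 0.0276 in a fit over 295 miRNAs, of which 28.1% were higher in PE). Without PE1 the call was lost (padj = 0.0663). In every library miR-122b-3p had the same counts, so that these miRNAs were not told apart. The small RNA libraries held 35576 to 152075 counts, and a count of 0 allows up to 50.4 to 74.5 CPM in an EE library.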

How the data were processed

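mRNA and small RNA of mouse PE (E9.5) and EE (E10.5) were sequenced by the authors in 3 libraries per stage and assay, 12 in all. The authors deposited whole-number counts per gene and per mature miRNA, not normalized. For the mRNA counts the study's methods name RSEM on the mm10 transcriptome, and the submitters' processing notes list featureCounts, STAR and Trim Galore 0.4.3.1 instead. Small RNA was counted with featureCounts on the miRBase annotation, per the methods. SMART-Seq v4 cDNA does not mark the strand. Samples were grouped by the stage in their titles, and columns named for epicardium-derived cells were read as the EE samples of the same number. The labels call the pools separate biological samples, and whether they came from separate litters is not given in the sources used here.

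Genes detected (1 count or more) in 3 or more of the 6 mRNA libraries, and miRNAs detected in all 3 libraries of either stage, were tested with edgeR 4.0.16 (quasi-likelihood test, TMM factors, R 4.3.3). Calls took a Benjamini-Hochberg adjusted p under 0.05 over all genes and a fold over 1.5, after the limits in the study's methods. The standard error is the size of the fold change over the square root of F. The common dispersion was 0.164. Depth ranged from 18464362 to 25814015 counts per mRNA library. A count of 0 was given a floor of 3 counts per library, and floors and counting intervals cover counting error only, since PCR copies are not independent molecules. Alternatives were DESeq2 1.42.0, limma 3.58.1 on log2(normalized count + 1), edgeR with RLE factors or unscaled library sizes, filterByExpr or no filter in place of the detection filter, calls with no fold limit, a block for the replicate number, and the removal of each library in turn. Positions and exon lengths are from GENCODE for GRCm38, where 278 of the 280 listed genes were matched, and promoters from RefSeq for GRCm38.p6. The tests were tested on simulated counts. Tables were joined with pandas 2.3.3 and numpy 2.4.6 under Python 3.11.15, and plots drawn with matplotlib 3.10.9.

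The members, the other gene lists and the tests were chosen with earlier results of these data known. All 34 members are named. From each other list the rule took up to 4 called and up to 2 not called genes with the highest mean CPM, of which the text gives a part. Some further genes of these lists, such as Amn, Cubn and Cebpa, were named outside this rule. The removal of PE1 and EE1 together was added after the data had been seen. Some genes of the other lists and a motif are not reported here.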

Additional observations from a re-analysis of the deposited data

How the results depend on the processing

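No log2 fold change of a member changed sign under any alternative that could be fitted. The number of members higher in PE, 29, was 27 with DESeq2, 31 with no filter, 30 with the replicate number as a block and 29 with limma, with RLE factors, with unscaled library sizes, with filterByExpr and with no fold limit. It ran from 24 (without PE1) to 30 (without EE1) when 1 library was left out and was 23 without PE1 and EE1, where members with counts in fewer than 3 of the remaining libraries were not tested. The number higher in EE was 0 throughout. Serpina6 passed with the replicate block (adjusted p = 1.68e-06), and without PE1 and EE1 it passed (adjusted p = 0.00334) while Plg did not (adjusted p = 0.0592). Over all genes, 1159 were higher in PE and 1078 higher in EE, against 1824 and 1644 with DESeq2, and the causes were not tested. With 1 library left out these numbers ran from 470 (without PE2) to 1100 (without EE3) and from 563 (without PE3) to 1160 (without EE3), and without PE3 501 were higher in PE and without PE2 595 higher in EE. Among the other liver plasma proteins, the 26 higher in PE ran from 16 (without PE1) to 28 (without EE3), and were 12 without PE1 and EE1. The log2 fold change of miR-122-5p ran from -12.04 (without EE1) to -6.097 (without EE2) and was -7.90 with the block. The deviations of same-numbered libraries from their stage means had correlations of -0.0225, 0.0304 and 0.0138. With 3 libraries per stage these values cannot decide whether the numbers pair the samples. With the replicate number as a block, 1382 genes were higher in PE and 1140 higher in EE. With the longest transcript as length, Apoe was at 5.31 CPM per kilobase in EE. Without Afp the members took a mean of 0.596% of the counts in PE and 0.0294% in EE, against 0.816% and 0.0311% with it. Members under 3 counts in the EE libraries cannot be ranked there at this depth.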
